A study of Mus musculus with 3 samples.

Results

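The second step of a doxycycline time course in melan-a NRAS61K cells, from 14 to 28 days of treatment, is described here gene by gene. The comparison rests on the 2 arrays titled 14 days and 28 days, of 3 arrays in all, and each time point had 1 array. A gene was taken up when it lay above the background of at least 1 of these arrays, which left 11745 of 18193 genes (64.6%). Melan-a is a line of immortalized mouse melanocytes, and the cells carried the NRAS61K oncogene. All arrays were of this 1 line under doxycycline at 1 µg/ml, in medium with dialyzed serum, so length of treatment is the only labelled difference. With 1 array per time point, differences of culture, RNA preparation or hybridization cannot be told apart from it. The labels do not say what doxycycline drives in these cells, and an untreated array was not used here. The series concerns the growth of tumorigenic cells out of a culture made senescent by the oncogene. A difference between days can come from fewer cells of one kind or from less RNA per cell, and a bulk array cannot tell these apart.

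Melanocytes make melanin inside melanosomes, with the enzymes tyrosinase, Tyrp1 and Dct under the transcription factor Mitf. A strong RAS signal can drive them into senescence, a lasting arrest in which cells are held by inhibitors of cyclin-dependent kinases, often enlarge, and secrete cytokines, proteases and matrix-binding proteins. Feedback phosphatases of the DUSP family and the Sprouty and Spred proteins are known to be induced by the ERK kinases downstream of RAS and to restrain them.

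The values were log2 levels on a scale set by the authors, and the backgrounds of the arrays of days 6, 14 and 28 were 22.75, 22.59 and 22.82. A difference is day 28 minus day 14 on that log2 scale, and folds assume the inferred base of 2. The labelled cell type was set against its markers. Sox10 (27.62, 28.34 and 28.50 on days 6, 14 and 28), Pax3 (27.49, 27.55 and 27.58) and Mitf (23.67, 26.10 and 25.80), which encode lineage factors, lay above the background on every array. The melanosome gene Mlana did too, at 24.25, 29.08 and 28.38. Tyr, the gene of tyrosinase, lay below the background throughout (21.94, 22.13 and 21.60), as did the receptor gene Kit (22.19, 21.96 and 21.72). Of 14 genes of the melanin list, 9 were above the background at day 14 and 9 at day 28. Nras read 26.92, 26.48 and 26.70, and its 3 probe sets differed by 0.22 to 0.31 between days 28 and 14. The hybridization controls had the same mean of 27.53 on both arrays, and the 3' minus 5' log2 difference of Actb was 0.76 at day 14 and 0.75 at day 28. The poly-A controls were 0.23 higher at day 28, and their part in the differences was not tested.

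Most genes were close to equal on the arrays of days 14 and 28. The median difference was 0.03, and the quartiles were -0.16 and 0.25. A difference of 2-fold or more in the higher direction was met by 257 genes, 2.19% of those compared, and in the lower direction by 170 genes, 1.45%. Differences of 4-fold or more were found for 51 higher and 18 lower genes, and 8-fold or more for 10 higher genes and 0 lower genes. Of the 2-fold genes, 91 of the higher ones lay below the background at day 14 and 57 of the lower ones at day 28, so these entered the comparison through their brighter array alone. Set against the background of the dimmer array, 35 of these higher genes and 10 of these lower ones were still 2-fold apart. With no second culture per time point, no difference here has a test or an error between cultures. With the arrays set to equal medians of 13 reference genes the split was 445 higher and 104 lower genes in place of 257 and 170, and the median of all genes was 0.24. That scaling adds the same amount to every difference, so it leaves each list's place relative to all genes as it was. Taken gene by gene, the reference genes had a median difference of -0.02, and that scaling moved it to 0.19. It therefore equalized the arrays' medians but not the reference genes one by one.

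**Figure D1:**
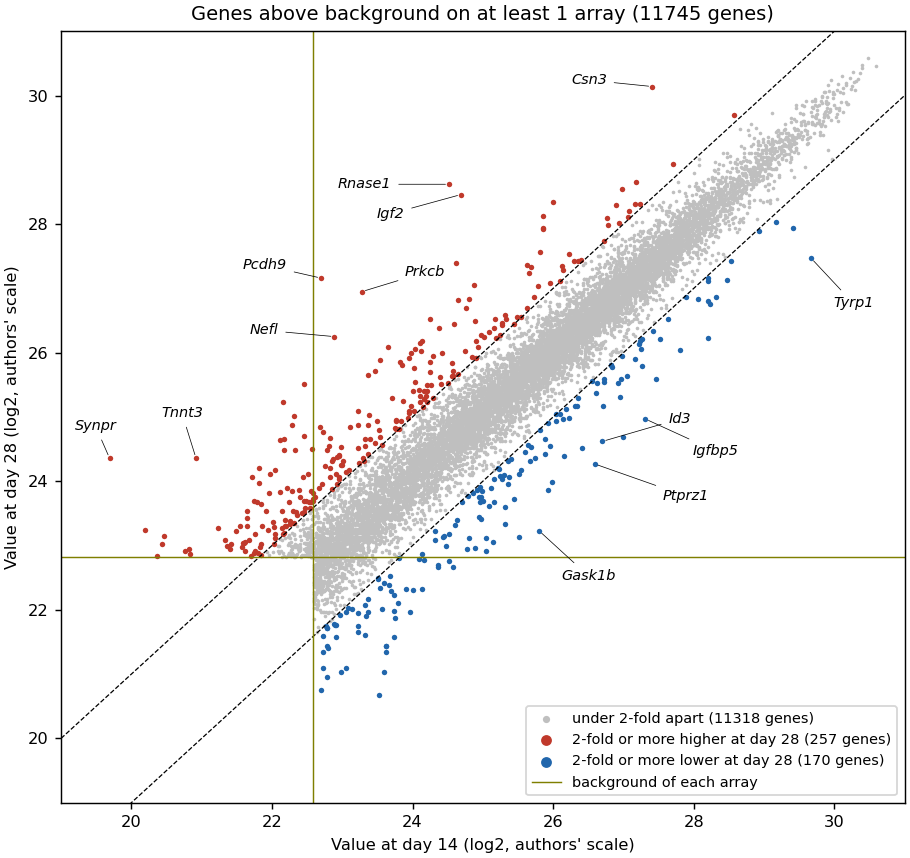
Level of each of the 11745 genes at day 14 (x axis) and day 28 (y axis), both in log2 units on the authors' scale, with dashed lines at 2-fold and solid lines at each array's background. The 257 genes higher at day 28 (red) reach farther from the diagonal than the 170 lower ones (blue).

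The measure of error within these 2 arrays was the disagreement between probe sets of the same gene. Among 5395 genes with more than 1 probe set above the background, probe sets of one gene had differences with an SD of 0.28. It was 0.32 for genes with a mean level under 25.2 and 0.23 for brighter ones. Of the 427 genes 2-fold apart, 140 had another probe set above the background. All other probe sets above the background had the same direction for 137 of these, and all were 2-fold apart too for 82. The remaining 287 genes had no second probe set above the background to compare. Averages over all probe sets of a gene, given below, can include probe sets below the background on both arrays. The same holds for values without probe sets that may bind several transcripts.

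**Figure D2:**
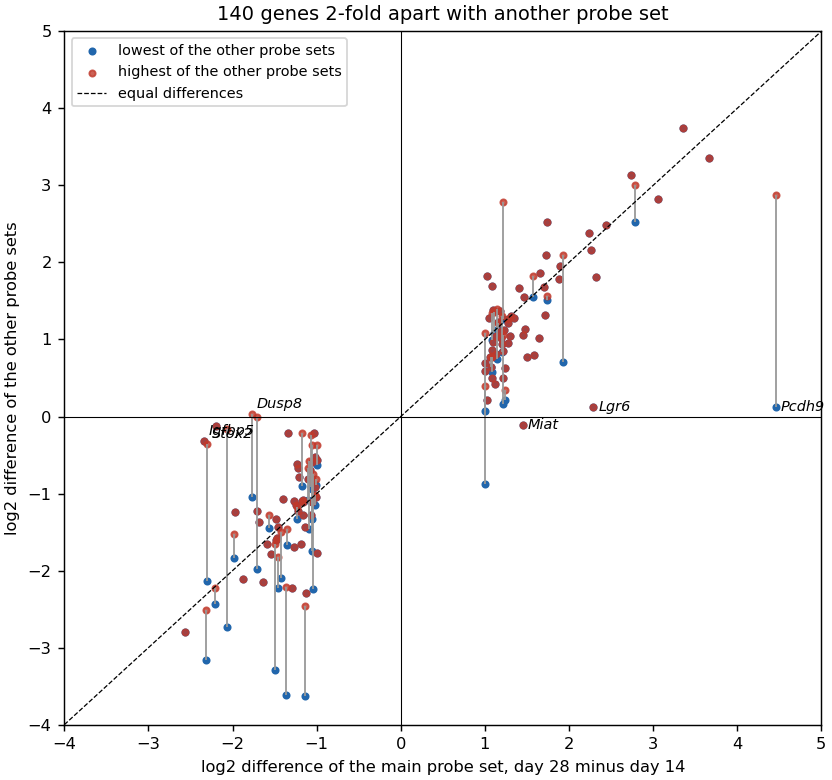
Log2 difference of the probe set used for each gene (x axis) against the lowest and highest difference of its other probe sets (y axis, joined by a line), for 140 genes 2-fold apart. Most points lie in the quadrants of equal sign, while Pcdh9 and Lgr6 have another probe set at 0.12.

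Promoters are shown for 8 members of the gene groups described next, because the groups share regulators with known binding motifs. Each run is the 300 bases from 250 before to 50 after the annotated start, taken from RefSeq on GRCm38.p6 and read 5' to 3' on the gene's strand, with the matched letters in capitals. Both strands were searched, and a match is a description of letters and no evidence of binding. The M-box letters TCATGTG, known from pigment genes, are marked in Tyrp1 (chr4:80833963-80834262, plus strand) and Dct (chr14:118052197-118052496, minus strand). The amino acid response letters TGATGNAAN, known as an ATF4 motif, are marked in Chac1 (chr2:119350992-119351291, plus strand) and Trib3 (chr2:152344011-152344310, minus strand). The hypoxia response core ACGTG is marked in Egln3 (chr12:54203825-54204124, minus strand) and Car9 (chr4:43506776-43507075, plus strand). The interferon response letters, TTTC and TTTC with any 2 bases between, are marked in Bst2 (chr8:71537423-71537722, minus strand), where both matches overlap. The E2F letters TTTGGCGC or TTTCCCGC are marked in Mcm5 (chr8:75109259-75109558, plus strand).
Tyrp1: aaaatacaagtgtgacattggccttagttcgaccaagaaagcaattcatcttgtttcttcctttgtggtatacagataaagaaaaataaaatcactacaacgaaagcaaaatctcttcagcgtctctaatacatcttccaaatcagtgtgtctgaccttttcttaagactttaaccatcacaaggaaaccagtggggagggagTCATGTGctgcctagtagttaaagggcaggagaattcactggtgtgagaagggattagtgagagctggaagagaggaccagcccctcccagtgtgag
Dct: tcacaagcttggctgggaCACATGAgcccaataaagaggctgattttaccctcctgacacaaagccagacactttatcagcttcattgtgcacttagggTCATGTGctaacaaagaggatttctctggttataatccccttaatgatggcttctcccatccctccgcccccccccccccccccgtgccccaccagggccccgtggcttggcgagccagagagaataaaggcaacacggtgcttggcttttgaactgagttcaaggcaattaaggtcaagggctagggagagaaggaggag
Chac1: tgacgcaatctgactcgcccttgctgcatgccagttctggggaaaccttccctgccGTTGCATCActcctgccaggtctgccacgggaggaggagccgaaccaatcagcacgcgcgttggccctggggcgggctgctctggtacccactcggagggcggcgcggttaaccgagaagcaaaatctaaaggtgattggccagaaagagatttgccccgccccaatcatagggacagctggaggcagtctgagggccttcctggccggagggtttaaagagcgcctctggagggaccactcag
Trib3: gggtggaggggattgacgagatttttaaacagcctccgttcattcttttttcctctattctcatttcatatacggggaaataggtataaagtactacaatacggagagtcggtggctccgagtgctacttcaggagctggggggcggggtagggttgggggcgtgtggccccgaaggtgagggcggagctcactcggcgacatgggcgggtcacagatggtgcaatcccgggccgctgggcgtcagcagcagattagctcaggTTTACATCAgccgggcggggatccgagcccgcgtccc
Egln3: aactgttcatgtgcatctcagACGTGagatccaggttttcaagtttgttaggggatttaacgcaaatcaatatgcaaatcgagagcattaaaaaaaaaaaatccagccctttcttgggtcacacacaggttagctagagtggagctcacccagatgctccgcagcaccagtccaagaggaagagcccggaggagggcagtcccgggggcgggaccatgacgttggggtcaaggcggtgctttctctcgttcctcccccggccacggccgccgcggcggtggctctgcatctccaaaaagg
Car9: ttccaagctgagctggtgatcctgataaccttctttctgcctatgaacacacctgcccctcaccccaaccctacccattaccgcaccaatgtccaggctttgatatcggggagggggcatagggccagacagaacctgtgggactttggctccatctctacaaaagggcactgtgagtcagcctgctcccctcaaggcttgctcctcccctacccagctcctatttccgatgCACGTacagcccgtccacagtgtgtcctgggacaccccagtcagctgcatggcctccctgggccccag
Bst2: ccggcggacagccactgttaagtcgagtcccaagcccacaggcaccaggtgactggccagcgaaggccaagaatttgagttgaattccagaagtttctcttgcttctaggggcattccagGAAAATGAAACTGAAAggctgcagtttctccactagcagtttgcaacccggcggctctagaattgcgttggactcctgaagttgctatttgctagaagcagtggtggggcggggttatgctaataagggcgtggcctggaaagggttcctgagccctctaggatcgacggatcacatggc
Mcm5: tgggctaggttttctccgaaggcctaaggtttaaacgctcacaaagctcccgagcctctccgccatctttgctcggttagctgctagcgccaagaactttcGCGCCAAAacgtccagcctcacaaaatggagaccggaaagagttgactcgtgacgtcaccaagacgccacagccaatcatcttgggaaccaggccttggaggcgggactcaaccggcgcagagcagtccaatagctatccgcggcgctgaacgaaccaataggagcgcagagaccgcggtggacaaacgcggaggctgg

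Pigment genes were lower at day 28 than at day 14. The melanin and melanosome list had a median difference of -0.88 over 10 members compared, with 5 members 2-fold lower and 0 higher. Tyrp1, the melanosomal enzyme whose promoter is printed above, read 27.58, 29.67 and 27.47 on days 6, 14 and 28. It was 4.62-fold lower at day 28 than at day 14, and its 3 probe sets differed by -2.43 to -2.21. The day 14 array was thus the high one for Tyrp1, and days 6 and 28 were close. Dct, which converts dopachrome, read 23.83, 29.17 and 28.03 and was 2.20-fold lower. Gpr143, the receptor that controls melanosome size, read 23.64, 25.37 and 24.06 (2.48-fold lower), and the transporter gene Slc45a2 read 23.11, 26.84 and 25.77 (2.09-fold lower). In each of these genes day 14 was highest and day 28 lay between the other days. Oca2, a melanosomal membrane protein gene, was above the background at day 14 only (22.73 against 21.09 at day 28), and gives no bound. With equal reference medians Dct (-0.93) and Slc45a2 (-0.86) were under 2-fold. The median rests on few genes: it was -0.52 with a lower background.

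Among genes of melanosome biogenesis and transport 3 of 20 members were 2-fold lower and 0 higher, with a median of -0.05 that turned to 0.16 with equal reference medians. The lower members were Rab32, Rab38 and Sytl2, and the others, among them Ap3b1 (-0.04) and Ap3d1 (-0.17), were under 2-fold apart. Rab32, a small GTPase that carries cargo to melanosomes, read 24.19, 24.89 and 22.96 (3.80-fold lower), close to the background at day 28. Its relative Rab38 read 25.00, 26.82 and 25.81 (2.02-fold lower). Sytl2, an effector of Rab27a in melanosome docking, read 26.68, 27.23 and 26.18 (2.06-fold lower). Rab32 and Sytl2 were lowest at day 28, below day 6 as well, whereas Rab38 was lowest at day 6. With equal reference medians Rab38 (-0.81) and Sytl2 (-0.84) were under 2-fold. None of 17 melanocyte transcription factors was 2-fold apart, and the largest difference was in Sox9 (23.82, 24.07 and 25.01). Among pigment cell receptors the growth factor receptor gene Fgfr2 was 3.28-fold lower (24.77, 25.31 and 23.60) and Pdgfra 2.36-fold higher (23.88, 24.26 and 25.50). Fgfr2 had another probe set above the background at -1.23. It was at -0.87, under 2-fold, without probe sets that may bind several transcripts, a value from a probe set below the background. Pdgfra was at 0.74, under 2-fold, with all its probe sets averaged, and had no other probe set above the background.

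The M-box letters occurred in the promoters of 2 of 5 melanin genes with a promoter in the table (40%), Tyrp1 and Dct, and in 4.31% of all 27025 genes with one. Among the transport genes 1 of 16 had them. Both matched melanin genes were 2-fold lower. Of the melanin genes whose promoter lacks the letters, Oca2 (-1.64) was 2-fold lower as measured, and Gpnmb (-0.08) and Atp7a (-0.13) were not. The matched transport gene, Hps1, differed by 0.05, and Rab32, without a match, by -1.92. The share among all genes is the background for this short motif and takes no account of base composition.

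The largest differences were higher at day 28 and lay in genes of unlike function. Pcdh9, a protocadherin of neural cells, read 21.58, 22.70 and 27.16 on days 6, 14 and 28 (a difference of 4.46 from day 14), although 1 of its 3 probe sets differed by only 0.12. Rnase1, a secreted ribonuclease, read 24.14, 24.52 and 28.62 (17.1-fold higher). Igf2, the imprinted growth factor, read 21.65, 24.69 and 28.46 (13.6-fold higher). Pcdh9 lay below the background at day 6 and just above it at day 14 (22.70 against 22.59), so its difference rests on a value near the background. Rnase1 was above the background but low on both earlier arrays, and both genes were high at day 28 alone. Igf2 lay below the background at day 6 and stepped up at each later day. Prkcb, a protein kinase C gene, read 21.81, 23.28 and 26.95 (12.7-fold higher), and its other probe set differed by 3.35. Nefl, the light neurofilament chain, read 21.76, 22.89 and 26.25 (10.2-fold higher), with 3.75 in a second probe set. Both were below the background at day 6 and less than 1 unit above it at day 14. The collagen gene Col20a1 was below the background at day 6 and read 24.62 and 27.40 on days 14 and 28 (6.89-fold higher), and its 4 probe sets lay between 2.53 and 3.01. Csn3, which encodes the milk protein kappa-casein, read 24.79, 27.41 and 30.14 (6.67-fold higher).

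The other genes among the 15 highest were between 4.52-fold and 5.44-fold higher. The basement membrane collagen gene Col4a5 read 23.28, 23.65 and 26.09. Lcn2, a secreted binder of iron-carrying siderophores, read 22.34, 26.00 and 28.35, and Cdsn, a protein of cornified cell junctions, 25.84, 23.54 and 25.89. Cdsn was as high at day 6 as at day 28, with day 14 the low array. Psmb9, an immunoproteasome subunit gene, read 22.59, 24.25 and 26.53 and Ifi27l2a, an interferon-inducible gene, 25.63, 25.85 and 28.12. The Wnt ligand gene Wnt7b read 23.20, 23.47 and 25.71. These 3 were highest at day 28. Lgr6, a receptor for R-spondins, read 23.97, 23.37 and 25.66, but a second probe set differed by 0.12, and C130026I21Rik read 24.95, 24.65 and 26.82.

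**Figure D3:**
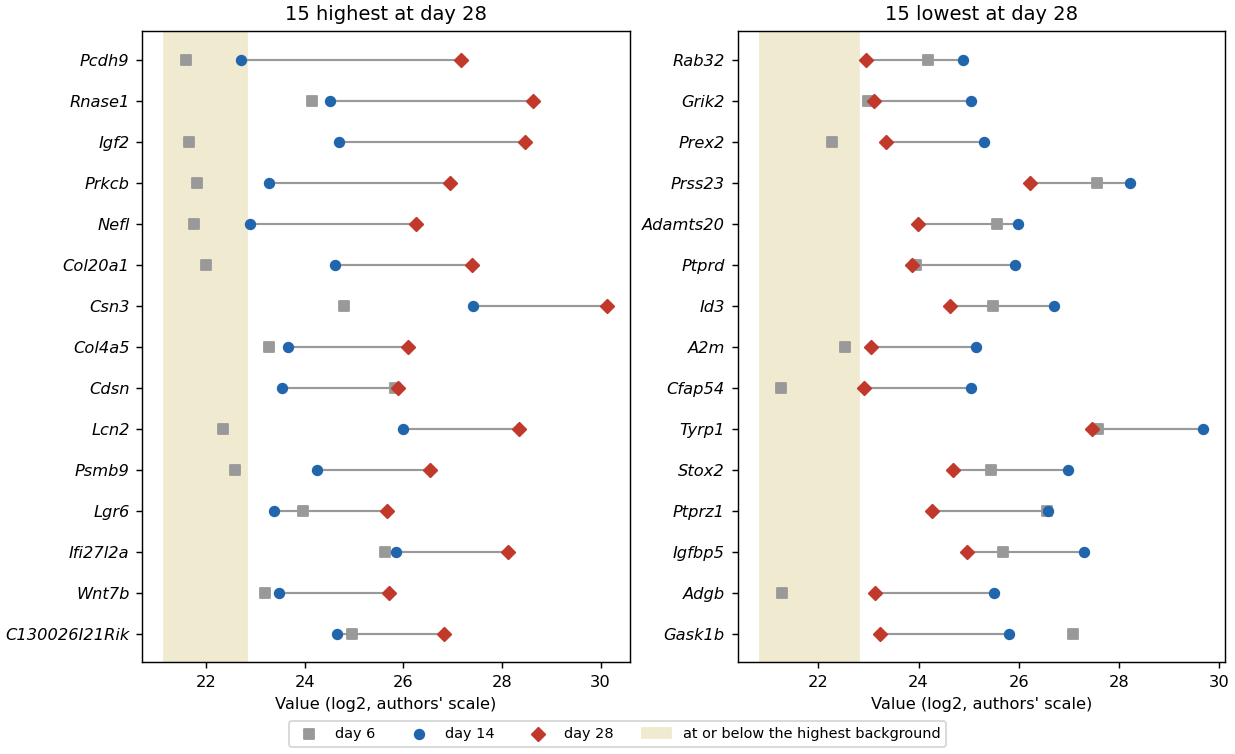
Log2 levels on the arrays of day 6 (grey), day 14 (blue) and day 28 (red) of the 15 genes highest (left) and the 15 lowest (right) at day 28 against day 14, taken from genes measured above background at both days. Among the lowest genes Tyrp1 and Ptprd are close on days 6 and 28, while Gask1b steps down at each day.

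Several genes lay below the background at day 14, so their folds are lower bounds against the background of that array. Kcnh1, a voltage-gated potassium channel, read 20.69, 22.45 and 25.51, at least 7.57-fold higher at day 28. Ryr3, a calcium release channel, read 19.48, 22.16 and 25.24, at least 6.28-fold higher. Tspoap1, which binds proteins of the presynaptic active zone, read 22.32 at day 14 and 25.02 at day 28, at least 5.39-fold higher. These genes were above the background at day 28 alone. The protease gene Prss22 was at least 4.85-fold higher (23.56, 22.28 and 24.87) and the fatty acid binding protein gene Fabp4 at least 4.35-fold higher (23.55, 22.45 and 24.71), both with a measured level at day 6. The other probe set of Fabp4 above the background differed by 2.16. Leaving out probe sets that may bind several transcripts gave -1.23. That value came from a probe set below the background on both arrays, so it is no measured reversal. Mfap3l (22.15, 22.17 and 24.66), the irritant-gated channel gene Trpa1 (18.48, 22.11 and 24.64) and the G protein subunit gene Gng2 (23.34, 22.57 and 24.50) were at least 4.19-fold, 4.13-fold and 3.76-fold higher. Chosen after its values were seen, the synaptic vesicle gene Synpr read 17.95, 19.69 and 24.36, at least 3.39-fold higher and the largest difference as measured, 4.66. Tnnt3, a muscle troponin gene used among the silent genes that set the background, read 21.28, 20.92 and 24.36.

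The lowest genes at day 28 mixed receptors, adhesion genes and secreted proteins. Gask1b, which encodes a Golgi protein, read 27.09, 25.80 and 23.23 on days 6, 14 and 28 (5.95-fold lower than at day 14). Adgb, a globin-related gene, read 21.27, 25.51 and 23.13 (5.20-fold lower). Igfbp5, an insulin-like growth factor binding protein, read 25.69, 27.31 and 24.97 (5.08-fold lower), but a second probe set differed by -0.32. Gask1b was lower at each later array, and the other genes were highest at day 14. Ptprz1, a receptor phosphatase of glia, read 26.57, 26.59 and 24.27 (4.99-fold lower), with 3 probe sets from -3.16 to -2.32. The transcription factor gene Stox2 read 25.44, 26.99 and 24.69, and its 5 probe sets ranged from -2.30 to -0.36. Id3, an inhibitor of basic helix-loop-helix factors, read 25.49, 26.70 and 24.62 (4.21-fold lower). Ptprz1 was level over the first step and Id3 was highest at day 14. Ptprd, a receptor phosphatase, read 23.95, 25.93 and 23.86, with 4 probe sets above the background from -2.73 to -0.16 and a mean over all its probe sets of -0.50. A2m, a broad protease inhibitor, read 22.53, 25.15 and 23.05 (4.29-fold lower). Adamts20, a matrix protease needed by melanoblasts, read 25.57, 25.99 and 23.99 (4.00-fold lower). Besides Tyrp1 and Rab32, the remaining members, Cfap54 (-2.13), Prss23 (-1.98), Prex2 (-1.97) and the glutamate receptor gene Grik2 (-1.94), were 3.83-fold to 4.39-fold lower.

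Among genes below the background at day 28 the bounds were smaller. Filip1, a filamin-interacting protein, read 24.36, 24.58 and 22.66, at least 3.41-fold lower than at day 14. Cdh1, the gene of E-cadherin, read 21.89, 24.36 and 22.70, at least 2.92-fold lower, and was above the background at day 14 alone. Lmcd1 read 23.01, 24.36 and 22.67 and was at least 2.91-fold lower. The active zone gene Rims1 (24.17 to 22.77), the junction gene Marveld3 (24.13 to 22.32), the ubiquitin ligase gene Rbx1 (24.09 to 22.79) and the adhesion receptor gene Adgrf5 (22.31 at day 28) were at least 2.27-fold to 2.55-fold lower. Averaged over their probe sets, Marveld3 differed by -0.14 and Adgrf5 by -0.96.

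Output and feedback genes of the ERK pathway were mixed, with 5 of 30 members 2-fold higher, 3 lower and a median of 0.28. Dusp2, a phosphatase of ERK kinases, read 24.30, 24.14 and 26.18 on days 6, 14 and 28 (4.11-fold higher than at day 14). Dusp5 read 24.16, 23.33 and 24.65 (2.49-fold higher), and Spred3, a RAS inhibitor, 24.65, 24.21 and 25.41 (2.31-fold higher). Dusp2, Dusp5 and Spred3 were highest at day 28. Fosl1, an AP-1 subunit, read 26.27, 24.39 and 25.62 (2.34-fold higher) and the ETS factor gene Etv4 25.74, 24.65 and 25.67 (2.04-fold higher), although a second probe set of Etv4 differed by 0.21 and its mean over probe sets by 0.62. For Fosl1 and Etv4 the low array was day 14. Dusp1 read 27.01, 28.21 and 26.81 (2.63-fold lower). Dusp8 was at least 3.27-fold lower (24.40, 24.52 and 22.76), but its other probe sets reached 0.03, and the mean over its probe sets was -0.93. The receptor gene Epha4 read 22.03, 22.90 and 21.76, below the background at day 28, and its 3 other probe sets above the background differed by -3.63 to -2.46. The probe set used for Epha4 was at -0.93 with equal reference medians. The AP-1 letters TGANTCA were in the promoters of 1 of 20 genes of the ERK list (5%) and of 8.97% of all genes. None of 27 genes of the RAS family and MAPK cascade was 2-fold apart, and their median was 0.10. Among 11 protein kinase C genes Prkcb was the higher one and Prkcq (24.53, 23.96 and 21.96) was at least 2.21-fold lower.

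Immediate early genes had 2 higher and 2 lower members among 30, with a median of 0.04. Klf10, a factor induced by TGF-beta, was 2.42-fold higher (24.98, 24.90 and 26.18). Ccn2 (26.54, 28.32 and 26.87) and Ccn1 (28.51, 28.48 and 27.13), secreted matricellular proteins known as YAP targets, were 2.74-fold and 2.55-fold lower. Ccn2 was high at day 14 alone, while Ccn1 was low at day 28 alone, in all 4 of its probe sets (-1.67 to -1.35). Among 31 YAP and TGF-beta targets these 2 and Amotl2 (27.66, 27.89 and 26.86) were 2-fold lower and 0 were higher, with a median of -0.03 that turned positive (0.18) with equal reference medians. Among contractile genes 4 of 34 were 2-fold lower and 0 higher: Filip1 and Lmcd1, given above, Sorbs2, an adaptor of actin fibres (28.14, 27.05 and 25.63), and Actg2, a smooth muscle actin (26.43, 24.92 and 23.87). Sorbs2 and Actg2 were lower on each later array. Amotl2 (-0.83) and Actg2 (-0.84) were under 2-fold with equal reference medians.

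Of the cell cycle inhibitors, Cdkn2a was 2-fold higher. Cdkn2a, the locus of p16 and Arf, read 25.32, 24.25 and 25.86 on days 6, 14 and 28 (3.05-fold higher than at day 14). Cdkn1a, the gene of p21, read 26.15, 25.59 and 26.31 (1.64-fold higher), and Cdkn2b read 26.22, 26.09 and 26.76 (0.66). Day 14 was the low array for these 3 genes, and day 28 the high one. None of 24 p53 pathway genes was 2-fold apart, and their median was 0.15.

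Genes of DNA replication and mitosis were slightly lower at day 28, none by 2-fold. Of 3 replication-dependent histone genes compared, 1 was 2-fold lower as measured, H3c4 (-1.28), and the median was -0.15. Of 42 DNA replication genes 34 were below 0 and the median was -0.27, while over all genes it was 0.03. The helicase subunit gene Mcm5 read 27.88, 26.85 and 26.03, and its second probe set differed by -0.78. Tk1, which salvages thymidine, read 27.72, 26.65 and 25.90, and Tyms, which makes thymidylate, 23.93, 23.67 and 22.88. All 3 were lower on each later array. Of 47 mitotic genes 45 were below 0 with a median of -0.28. The passenger complex genes Incenp (28.18, 27.57 and 26.82) and Birc5 (28.19, 27.09 and 26.48) stepped down alike. The phosphatase gene Cdc25b went the other way (25.89, 25.07 and 25.67). With equal reference medians the list medians were -0.06 and -0.07, while the median of all genes was 0.24. The first step, which shares the day 14 array, had medians of -0.88 and -0.95. The E2F letters occurred in 11 of 35 replication promoters (31.4%), in 2 of 39 mitotic ones (5.13%) and in 1.80% of all genes. Replication genes with and without them had medians of -0.35 and -0.30.

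**Figure D4:**
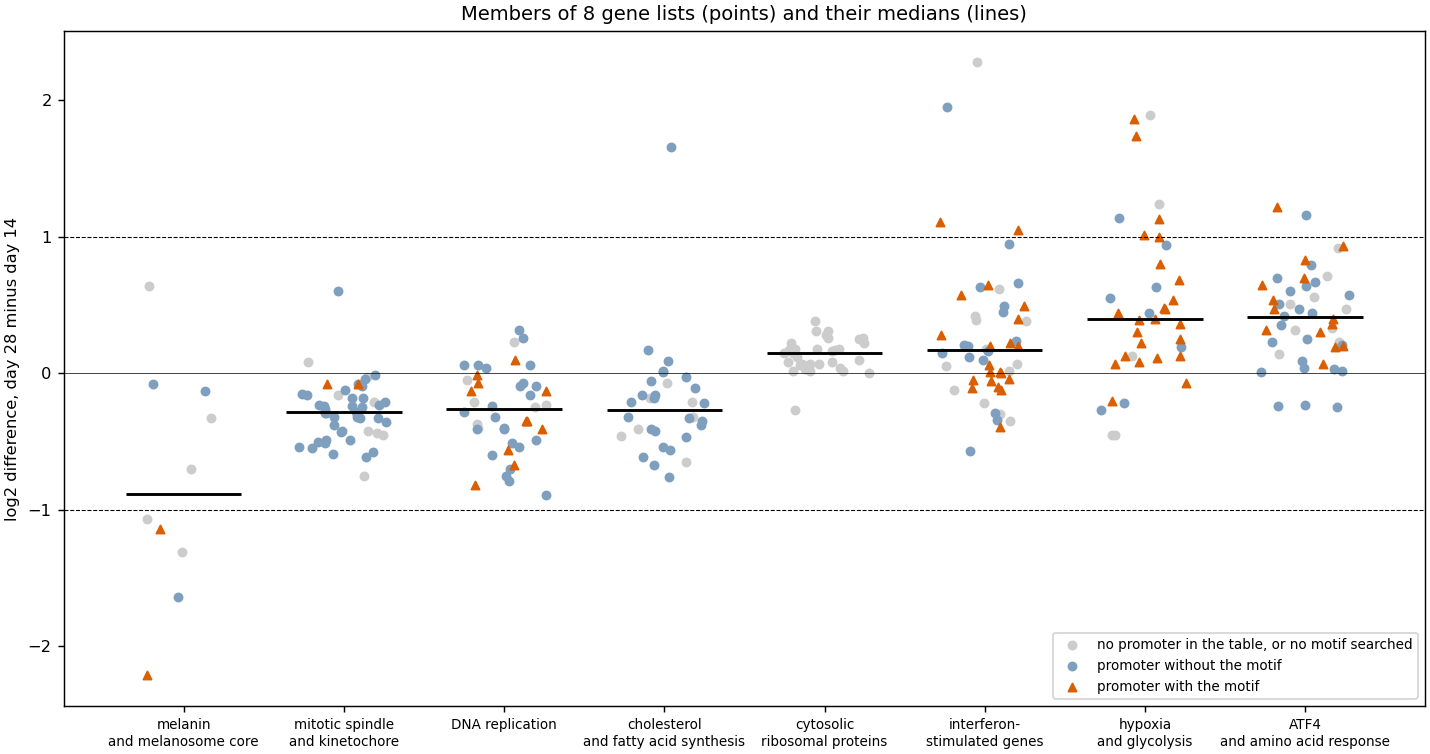
Log2 difference, day 28 minus day 14 (y axis), of each member compared in 8 gene lists (x axis), with the list's median as a line and dashed lines at 2-fold. Orange triangles are members whose promoter holds the motif searched, blue points those whose promoter lacks it, and grey points those with no promoter in the table or no motif searched.

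Genes of the amino acid response were higher at day 28 almost throughout. Of 46 ATF4 and amino acid response genes 43 were above 0 and the median was 0.41, with 2 members 2-fold higher and 0 lower. Chac1, which degrades glutathione, read 25.95, 24.11 and 25.33 on days 6, 14 and 28 (2.33-fold higher than at day 14). Atf5, a transcription factor under ATF4, read 26.56, 25.27 and 26.43 (2.24-fold higher). Trib3, a pseudokinase induced by ATF4, read 27.97, 26.71 and 27.64 (0.93), with 1.13 in its second probe set. In all 3 day 14 was the lowest array and day 6 the highest. Eif4ebp1, a repressor of translation, read 28.66, 26.90 and 27.82, but another of its 3 probe sets differed by -0.25. The first step, which shares the day 14 array, had a list median of -0.84. The amino acid response letters occurred in 14 of 37 promoters of the list (37.8%) and in 4.50% of all genes. Members with and without them had medians of 0.44 and 0.35. None of 28 genes of the unfolded protein response was 2-fold apart (median -0.10, and 0.11 with equal reference medians). The transsulfuration gene Cth lay below the background on all arrays (20.57, 19.24 and 20.47).

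Hypoxia and glycolysis genes were also higher, with a median of 0.40, 31 of 37 members above 0, and 8 of them 2-fold higher and 0 lower. Egln3, the oxygen-sensing prolyl hydroxylase, read 23.52, 22.81 and 24.55 (3.35-fold higher), with 2.52 in its second probe set. Car9, a carbonic anhydrase used as a marker of low oxygen, read 21.54, 21.96 and 23.82, at least 2.34-fold higher and above the background at day 28 alone. The glucose transporter gene Slc2a3 read 21.59, 23.22 and 25.10 (3.69-fold higher), with 1.95 in its other probe set above the background. Without probe sets that may bind several transcripts it was 0.18, read from a probe set below the background on both arrays. The secreted hormone gene Stc1 (23.06, 23.32 and 24.55), the glycolytic gene Pfkp (27.06, 26.14 and 27.28), the MYC antagonist gene Mxi1 (24.99, 25.73 and 26.86), the mitophagy gene Bnip3 (25.30, 24.90 and 25.91) and the angiogenic factor gene Vegfa (25.84, 25.44 and 26.45) were 2.01-fold to 2.35-fold higher. For each of these the day 28 array was the highest of the 3. With all probe sets of a gene averaged, Stc1 (0.44), Pfkp (0.65), Mxi1 (0.97) and Vegfa (0.80) were under 2-fold. Mxi1 and Vegfa had another probe set above the background, at 0.81 and 0.59. Stc1 and Pfkp had none, so their averages include probe sets below the background on both arrays. The core ACGTG occurred in 24 of 32 promoters (75%) and in 21.8% of all genes. Members with it had a median of 0.39 and members without it one of 0.50.

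Interferon-stimulated genes had 4 of 50 members 2-fold higher, 0 lower and a median of 0.17. Ifi27l2a was given above. Bst2, the membrane protein that tethers budding virus, read 29.14, 28.58 and 29.69 on days 6, 14 and 28 (2.15-fold higher than at day 14). Slfn8 read 22.76, 24.58 and 25.63 (2.06-fold higher) and Slfn2, of the same family, 21.84, 21.74 and 23.69 (at least 2.14-fold higher). Slfn2 was above the background at day 28 alone and Bst2 was high throughout. Of 18 MHC and antigen processing genes 2 were 2-fold higher: Psmb9, given above, and H2-M3, a nonclassical class I gene (22.91, 24.76 and 26.70, 3.84-fold higher). The peptide transporter gene Tap1 read 24.71, 26.35 and 27.26. These 3 genes were higher on each later array. The list median was 0.21, and 6 members were below 0, among them Psmb10 (-0.44) and Erap1 (-0.59). The interferon response letters occurred in 21 of 37 interferon promoters (56.8%), in 3 of 13 antigen processing ones (23.1%) and in 3.99% of all genes. Interferon genes with and without them had medians of 0.06 and 0.21.

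Secreted factors of senescent cells had 6 of 27 members 2-fold higher, 1 lower and a median of 0.32. Timp1, an inhibitor of metalloproteinases, read 26.10, 24.80 and 26.83 (4.10-fold higher). The interleukin gene Il11 read 25.56, 23.95 and 25.91 (3.88-fold higher). For both genes day 14 was the low array. The collagenase gene Mmp13 (22.80, 23.11 and 24.85) was 3.35-fold higher and the stromelysin gene Mmp3 (25.62, 27.08 and 28.20) 2.17-fold higher. Both were highest at day 28. Stc1 and Vegfa also belong to the hypoxia list, so these lists share members, and both were under 2-fold with probe sets averaged (0.44 and 0.80). The 2-fold lower member was Igfbp5. Other cytokine genes went both ways among 36 compared, 3 higher and 3 lower. Il33, an alarmin, was 4.14-fold higher (23.70, 24.10 and 26.15) and Il34, a ligand of the macrophage receptor Csf1r, at least 1.36-fold higher (24.04, 22.03 and 23.03). Tslp was 2.33-fold lower (24.78, 24.98 and 23.75), and the chemokine genes Cxcl15 and Ccl6 were at least 1.89-fold and 1.26-fold lower, both above the background at day 14 alone. Ccl6 was under 2-fold with equal reference medians (-0.92) and with probe sets averaged (-0.91). In the complement and acute phase list Serpina3n (23.35, 26.98 and 28.54) was 2.94-fold higher, C1s1 (19.73, 23.52 and 24.80) 2.43-fold higher, and A2m lower.

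Proteases and matrix genes differed in both directions. Besides Timp1, Mmp13 and Mmp3, the genes Adamtsl4 (23.85, 23.76 and 24.93), Mmp19 (22.31, 21.84 and 23.02) and Adam8 (23.06, 22.47 and 23.58) were 2-fold higher as measured, the latter pair with bounds of 1.35-fold and 1.98-fold. Adamts20, Adam12 (23.62, 26.61 and 25.37) and Adamts5 (25.51, 26.35 and 25.30), an aggrecan-cleaving enzyme, were lower, which makes 6 higher and 3 lower among 34. Adamts5 was at -0.84 with equal reference medians and at -0.97 with probe sets averaged. Of 26 collagen genes 3 were 2-fold higher and 5 lower, with a median of -0.22. Col6a1, a chain of the beaded-filament collagen, read 22.38, 23.85 and 25.81 (3.88-fold higher), beside Col20a1 and Col4a5. The fibrillar chains Col3a1 (25.25, 26.31 and 25.17), Col11a1 (22.73, 24.96 and 23.68) and Col27a1 (22.68, 26.93 and 25.53) were 2.20-fold to 2.64-fold lower, and Col12a1 (24.16, 24.95 and 23.45) 2.84-fold lower. Each lower chain was highest at day 14. Col15a1 lay near the background at day 14 (22.78) and below it at day 28. Col12a1 was at -0.73 with its probe sets averaged, and Col3a1 (-0.93) and Col15a1 (-0.86) were under 2-fold with equal reference medians.

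Of 29 proteoglycans, microfibril and other matrix genes 6 were 2-fold lower and 2 higher. Ogn, a small leucine-rich proteoglycan, read 24.29, 27.47 and 25.59 (3.69-fold lower) and its relative Fmod 23.82, 24.47 and 22.99 (2.80-fold lower in the probe set used, with 5 from -3.29 to -1.49). The elastic fibre gene Fbln5 read 26.92, 27.81 and 26.04 (3.41-fold lower), and the cartilage gene Cnmd 22.33, 26.15 and 24.40 (3.36-fold lower). Ogn and Cnmd kept part of the height they had gained by day 14, whereas Fmod and Fbln5 ended below day 6. Fbn2, a fibrillin (25.01, 24.14 and 22.87), and the basement membrane gene Nid2 (26.48, 26.98 and 25.95) were 2.42-fold and 2.04-fold lower. Ecm1 was 2.01-fold higher (26.66, 26.73 and 27.73) and Tnxb at least 1.26-fold higher. Among 22 integrin and laminin genes Itgb8, which activates latent TGF-beta, was 2.24-fold lower (25.14, 26.34 and 25.17). Nid2 (-0.82) and Itgb8 (-0.96) were under 2-fold with equal reference medians.

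Genes of adhesion and of neural and glial type differed in both directions. Among 25 cadherins Cdh5, a junction protein of endothelium, read 23.70, 25.85 and 27.93 (4.21-fold higher) and Cdh13 25.35, 24.56 and 25.84 (2.42-fold higher). Cdh19, known from Schwann cell precursors, read 25.62, 28.20 and 27.11 (2.13-fold lower), and Cdh1 was lower as given above. Of 17 Schwann and glial markers 3 were 2-fold lower and 0 higher, namely Ptprz1, Cdh19 and the small heat shock gene Cryab (28.20, 28.53 and 27.43), and the median was -0.22. With equal reference medians Cdh19 and Cryab were both at -0.88, and Cryab was at -0.58 without probe sets that may bind several transcripts. Nefl was the only one of 11 neurofilament and neuronal cytoskeleton genes 2-fold apart. Among 20 channels Kcnh1 and Ryr3 were higher and the sodium channel gene Scn1a (23.05, 26.96 and 25.59) 2.59-fold lower, in 3 probe sets from -3.62 to -1.37. Of 47 guidance genes 4 were higher and 2 lower. Sema3a read 22.80, 22.11 and 23.83 (at least 2.36-fold higher), and Sema6d (26.21, 27.16 and 28.32), Ntn1 (25.42, 26.39 and 27.44) and Sema4c (26.20, 26.10 and 27.12) were 2.03-fold to 2.23-fold higher. The ephrin receptor gene Epha7 was 2.07-fold lower (24.39, 25.40 and 24.35). Cdh13 (0.83), Sema6d (0.62) and Ntn1 (0.68) were under 2-fold with their probe sets averaged, and Epha7 (-0.84) with equal reference medians. The other probe sets of Cdh13 and Sema6d above the background differed by 0.95 and 1.23, and Ntn1 had none.

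Markers of other cell types were read because Cdh5, Cd68 and Cdsn are such markers. Of 15 endothelial markers 2 were above the background at day 14 and 2 at day 28. Pecam1 (19.70 and 19.61 on days 14 and 28), Kdr (21.66 and 22.28) and Tek (21.53 and 21.31) were below it on both arrays. Of 23 macrophage and leukocyte markers 8 were above the background at day 14 and 9 at day 28. The lysosomal gene Cd68 read 25.09, 23.98 and 25.99 on days 6, 14 and 28 (4.03-fold higher than at day 14), while the leukocyte phosphatase gene Ptprc (20.80 and 21.42) and Itgam (19.59 and 20.25) were below the background on both. Of 29 keratinocyte markers 9 and 8 were above it, and the cornified envelope genes Sprr1a (24.66, 22.87 and 24.35) and Lce1h (25.16, 22.54 and 23.58) were, with Cdsn, 2-fold higher, while Krt14 was below it (21.86 and 22.10). These 3 were lowest at day 14. Of 16 fibroblast markers 8 were above the background on each array. The log2 of the summed level of the fibroblast markers was 29.56 and 28.81 on days 14 and 28, of the endothelial ones 28.27 and 28.86, of the leukocyte ones 28.82 and 29.10, and of the keratinocyte ones 27.21 and 27.73. The last 3 sums include Cdh5, Cd68 and Cdsn, already known to be higher, so they are a description only. Median levels were 22.54 and 22.81 for fibroblast and 21.45 and 21.31 for endothelial markers. They were 21.95 and 22.02 for leukocyte and 21.96 and 22.06 for keratinocyte markers, all below the background.

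Signalling ligands, receptors and their targets differed in single members. In the insulin-like growth factor axis Igf2 was higher and Igfbp5 lower, the RNA-binding gene Igf2bp1 (24.16, 22.88 and 21.78) was below the background at day 28, and the median of 18 genes was 0.01. Of 27 imprinted genes Igf2 was the only one 2-fold apart, and the next differences were in Mest (27.95, 27.28 and 26.36) and Magel2 (22.01, 22.32 and 23.18). Notch3 (23.87, 25.17 and 26.53) was 2.55-fold higher and Rbpj, the DNA-binding partner of Notch, 2.30-fold higher (26.93, 26.78 and 27.98). The ligand gene Dll1 read 24.73, 25.79 and 26.72. Among 33 Wnt genes the ligand gene Wnt7b was higher, Wnt4 (21.32, 21.70 and 22.83) was at least 1.18-fold higher, and the receptor gene Fzd8 (25.58, 26.72 and 25.55) 2.24-fold lower. Id4 went against Id3, at 24.17, 25.63 and 27.36 (3.33-fold higher), with 3 probe sets from 1.51 to 1.74. With equal reference medians Fzd8 (-0.95) and Igf2bp1 (-0.89) were under 2-fold, and Wnt4 (0.70) was with its probe sets averaged.

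Stress and metabolic lists held isolated 2-fold genes. Akr1b8, an aldo-keto reductase under NRF2, read 26.12, 24.88 and 27.05 (4.49-fold higher), and the haem-degrading gene Hmox1 24.99, 23.01 and 24.32 (2.47-fold higher), among 35 oxidant defence genes with a median of 0.08. Day 14 was the low array for both. The antioxidant letters TGACNNNGC occurred in 9 of 30 promoters of that list (30%) and in 14% of all genes. The ferrireductase gene Steap4 read 19.46, 21.84 and 23.64, at least 2.07-fold higher, with a mean over its probe sets of 0.95. Of 32 cholesterol and fatty acid synthesis genes 27 were below 0 with a median of -0.27, led by Insig1 (27.82, 27.91 and 27.15) and Cyp51 (28.72, 28.07 and 27.40). Acss2, which makes acetyl-CoA from acetate, was the exception at 24.26, 24.29 and 25.95 (3.16-fold higher). The sterol response letters, ATCAC followed by CCCAC, were in 0 of 25 of their promoters and in 0.0999% of all genes. The lysosomal sulfatase gene Sgsh was 2.09-fold lower (23.67, 26.10 and 25.04) and the autophagy gene Atg9b read 22.89, 22.49 and 23.69. Atg9b was at least 2.13-fold higher in the probe set used but at 0.53 with its probe sets averaged, and Sgsh was at -0.83 in that way and at -0.86 with equal reference medians. The BCL2 family gene Bmf, which promotes cell death, was 2.15-fold higher (23.36, 24.41 and 25.51), but at 0.75 with probe sets averaged and 0.47 without those that may bind several transcripts. The calcium-binding gene S100a6 read 25.23, 24.12 and 26.03 (3.77-fold higher).

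The basic machinery of the cell was close to level. Of 32 cytosolic ribosomal protein genes 30 were above 0, with a median of 0.15, and the largest difference was in Rpl8 (29.60, 28.91 and 29.29). The medians of the respiratory chain (0.04 over 36 genes) and of ribosome biogenesis (0.03 over 35) lay at the median of all genes. None of these 3 lists held a 2-fold gene. The 13 reference genes had a median of -0.02, and the largest difference was in the transferrin receptor gene Tfrc (29.16, 29.19 and 28.39). The retinoid list had a median of 0.39 over 15 genes and 1 lower member, the dehydrogenase gene Aldh1a7 (22.99, 25.27 and 24.03). Medians of 19 lists, all between -0.20 and -0.01, turned positive with equal reference medians, as the common shift of that scaling requires. Of 1338 list genes compared, 73 were 2-fold higher and 54 lower, beside 257 (2.19%) and 170 (1.45%) of all 11745 genes. The lists were chosen with earlier results of these data known, so these counts are a description only. Of all 427 genes 2-fold apart, 127 were in a list, so most belonged to none.

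**Figure D5:**
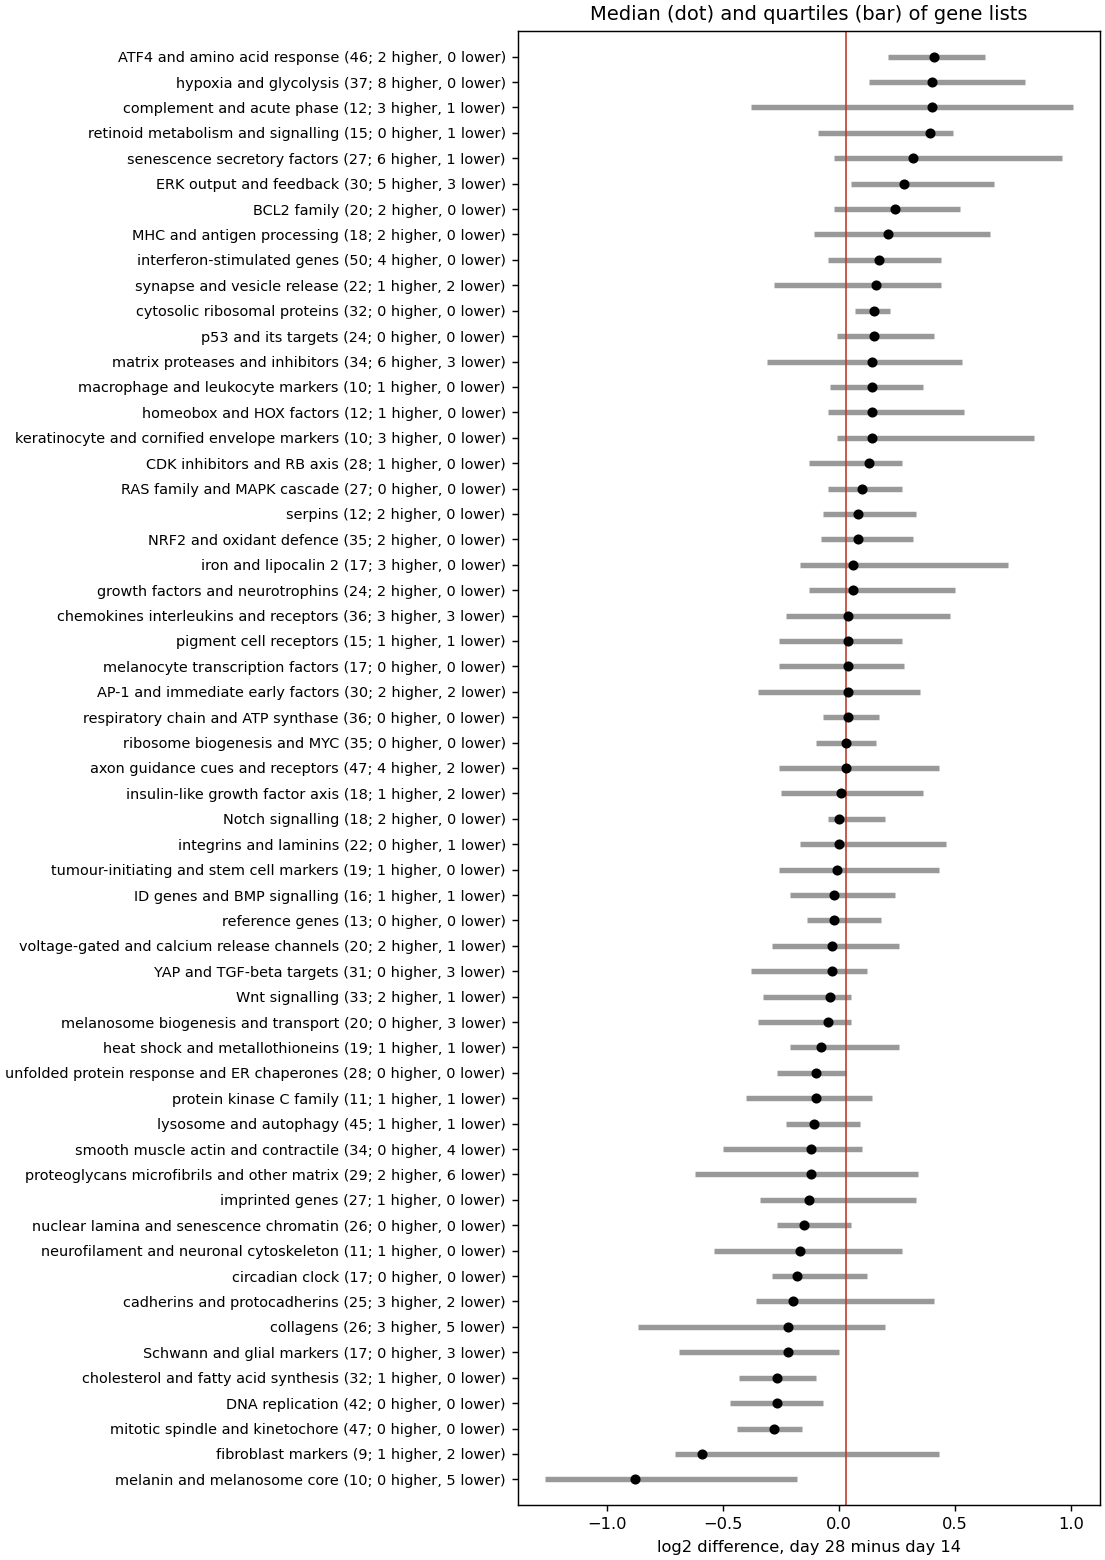
Median (dot) and quartiles (bar) of the log2 difference, day 28 minus day 14 (x axis), of each gene list with at least 5 members compared; numbers in brackets are members compared and members 2-fold higher and lower. The red line is the median of all genes, 0.03, and the melanin list at -0.88 lies farthest from it.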

How the data were processed

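RNA of melan-a NRAS61K cells after 6, 14 and 28 days of doxycycline was hybridized to Affymetrix mouse arrays, 1 per time point, per the labels; the series text counts 4 samples and 3 were analysed here. The authors deposited a table of 45101 probe sets (64 controls) by array, read here as log2 values. The summarization method and the scaling were not given in the sources used here. Once sorted, the columns were identical, with a range of 1.46 to 30.6 and a median of 22.9, so a shift common to all genes cannot be seen. The base of 2 was inferred: the level of hybridization controls had a slope of 0.74 to 0.80 against log2 concentration.

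Probe sets were named by the platform annotation and updated gene symbols (34958 with 1 gene, 932 with several, 9211 not listed). The brightest probe set by mean stood for each gene. The background of an array was set at percentile 90 of 127 probe sets from 83 genes taken as silent. A gene was counted at a 2-fold difference. A gene below the background on 1 array has a bound against it, and none where the brighter value did not clear it. Just inside the filter lay Smpd3, Cd40 and Kcnj16, and just outside it Rab27a, Ehf and Tnfrsf22.

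The members, the 59 lists and the rules were chosen with earlier results of these data known. Named genes are the 15 highest and 15 lowest differences above the background on both arrays, the 8 highest and lowest bounds, each list's 2-fold members and its 3 largest, the reference genes, Nras, Cdkn2a, Cdkn1a, Cth and melanocyte markers. Markers of other cell types, Cdkn2b and others so marked were chosen after their values were seen. There is no test, since each time point has 1 array, and precision is limited by the number of arrays. Alternatives changed the scaling, probe sets, background and fold size. Python 3.11.15 with numpy 2.4.6 and pandas 2.3.3 was used, and the steps were tested on simulated data.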

Additional observations from a re-analysis of the deposited data

How the results depend on the processing

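No paired analysis was possible because each time point had 1 array. The counts of 257 higher and 170 lower genes were 445 and 104 with equal medians of the reference genes, 166 and 113 with both arrays above the background, 752 and 585 with no filter, 885 and 517 at 1.5-fold, and 88 and 47 at 3-fold. The reference scaling moved every difference by the same amount: the reference gene at the median was Pgk1 at day 14 (28.92) and Ywhaz at day 28 (28.71). Under it 19 of 147 named 2-fold genes were no longer 2-fold, against 0 with equal hybridization controls, 24 with probe sets averaged, and 5 of 131 without probe sets that may bind several transcripts. In that last setting Fabp4 was -1.23 in place of 2.26, read from a probe set below the background on both arrays.

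The melanin median of -0.88 was -0.52 with a background at the 75th percentile, -0.51 with no filter and -0.52 with dim values raised to the background. The fibroblast median of -0.59 was 0.13 at the 75th percentile and 0.12 with no filter. The endothelial median of 0.91 rests on 2 genes and was 0.47 with probe sets averaged, 2.07 without shared probe sets, 0.07 at the 75th percentile and 0.29 with no filter. Without shared probe sets the complement median was 0.07 in place of 0.40 and that of the histones -0.67 in place of -0.15. The lower background and the missing filter add genes, and the setting without shared probe sets removes them; no other cause was tested.

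With 1 array a time point, the spread between cultures is not known.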

Other observations

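Genes 2-fold apart were also looked at along the chromosomes, and the pairs named here were chosen after their values were seen. Among 11698 pairs of neighbouring genes compared, 37 had both members 2-fold apart, of which 21 were both higher at day 28, 8 both lower and 8 opposite. Over all genes compared 2.19% were 2-fold higher and 1.45% lower. Whether neighbours exceed what these shares give was not tested. On chromosome 11 the schlafen genes Slfn8 (1.05), Slfn10-ps (1.88) and Slfn2 (1.95) were neighbours. On chromosome 8 Gtpbp3 (1.04), Plvap (1.66) and Bst2 (1.11) were, and on chromosome 2 Ggt7 (1.27), Acss2 (1.66) and Gss (1.27), of which Ggt7 and Gss belong to glutathione metabolism. The calcium-binding genes S100a6 (1.91) and S100a8 (2.16), the metalloproteinase genes Mmp13 (1.74) and Mmp3 (1.12), and the protease inhibitor gene Spint1 (2.0) with the GTPase gene Rhov (2.60) were further higher pairs. Ptprd (-2.06) and Tyrp1 (-2.21) were a lower pair on chromosome 4, and Adgb (-2.38) and Rab32 (-1.92) one on chromosome 10. The sodium channel genes Scn1a (-1.37) and Scn7a (1.27) were neighbours with opposite differences.

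Probe sets with no gene in the annotation leaned the other way from the named genes. Of 9160 such probe sets 3288 were compared, of which 43 (1.31%) were 2-fold higher and 85 (2.59%) lower. Among named genes 2-fold apart, 3 had probe sets of opposite direction: Dusp8, Miat (1.45 and -0.11) and Ak4 (1.00 in the probe set used, with another at -0.88).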
